A study of Mus musculus with 6 samples.

Results

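Tubular injury genes other than keratins were followed in RNA from pulldowns of tagged ribosomes of neonatal mouse kidney. The 10 genes are Havcr1, Lcn2, Spp1, Clu, Cd44, Vcam1, Cd24a, Sox9, Vim and Anxa2, chosen by name among the 48587 genes of the deposited table. A filter on low counts kept 14311 genes, with 9 of the 10 among them. Havcr1 did not pass it.

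There were 6 libraries, 3 labelled Foxp1-deficient and 3 labelled littermate control. Foxp1-deficient animals had the genotype Cdh16Cre;Foxp1fl/fl;RiboTag, so both Foxp1 alleles were floxed, and they carried the treatment label chronic acid load. Controls had the genotype Cdh16Cre;Foxp1fl/+;RiboTag, so 1 allele was floxed, and their label was vehicle treatment. All animals carried the Cre, driven by the promoter of the tubule cadherin gene Cdh16, and RiboTag, an allele that adds an HA tag to a ribosomal protein where Cre has acted. Polysomes were pulled down with anti-HA beads from perfused kidneys. Genotype and treatment label coincide and cannot be told apart, and the labels' protocols describe no acid load. Nothing in the labels says that replicates were separate animals, so p-values measure library-to-library spread alone, which may be technical in part or whole. The study asked what Foxp1, a forkhead transcription factor, does in kidney tubules.

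Injured tubule epithelium sheds its differentiated state and switches on a shared set of genes before it repairs itself. The set includes secreted or shed proteins that serve as urine and tissue markers of injury, surface receptors for matrix and for leukocytes, a progenitor transcription factor and proteins of the cytoskeleton. Most of these genes are not particular to the tubule: Vim is a gene of mesenchyme and endothelium, Vcam1 of activated endothelium and stroma, Cd44 and Spp1 of macrophages among others, and Sox9 and Cd24a of the developing kidney itself.

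The libraries differed more by their number than by group. Total counts ran from 9710048 to 18958196, and the libraries numbered 2, 1 in each group, had the 2 lowest totals. Genes with a count numbered 14285 in Foxp1-deficient 2 and 13885 in control 2, against 18241 to 22190 in the other libraries. Foxp1 itself had 36.3, 9.17 and 33.7 CPM (counts scaled to the library's total) in Foxp1-deficient libraries 1, 2 and 3, against 51.4, 26.0 and 40.5 CPM in controls 1, 2 and 3, and the groups overlapped (log2 fold change -0.62, SE 0.49, adjusted p = 0.9998, edgeR). Without Foxp1-deficient library 2 it was -0.27. Counts per gene cover all Foxp1 exons, deleted or kept, and the level tests the genotype labels only weakly. Tubule transcripts were present mainly in the libraries numbered 3. The summed level of 6 general tubule epithelium genes, Cdh16 among them, was 3.03, 5.46 and 76.2 CPM in Foxp1-deficient libraries 1, 2 and 3, against 1.12, 10.7 and 72.6 CPM in controls 1, 2 and 3. Defining markers of the label kidney tubular cells were thus present in the libraries numbered 3, with Cdh16 at 48.5 CPM in Foxp1-deficient 3 and 48.6 CPM in control 3. They were low beside stroma there, as Col1a1 had 9387 and 10090.5 CPM in the same libraries. In the other 4 libraries Cdh16 was at 9.23 CPM or less.

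Promoters of 6 of the 10 genes are in the RefSeq table of GRCm38.p6, the build also called mm10. Those of Spp1 and Anxa2 are shown because these genes held opposite directions in all 3 pairs of equally numbered libraries. Each run holds the 250 bases upstream of the RefSeq start, 5′ to 3′ on the gene's strand, with capitals for an AP-1 motif (TGAGTCA) or a TATA box (TATAAAA).
Spp1, chr5:104434861-104435110, plus strand: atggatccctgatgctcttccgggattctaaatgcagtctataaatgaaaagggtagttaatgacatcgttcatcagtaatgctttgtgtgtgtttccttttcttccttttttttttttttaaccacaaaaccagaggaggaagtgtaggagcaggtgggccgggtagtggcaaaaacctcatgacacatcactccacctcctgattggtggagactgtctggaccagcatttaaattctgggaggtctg
Anxa2, chr9:69453433-69453682, plus strand: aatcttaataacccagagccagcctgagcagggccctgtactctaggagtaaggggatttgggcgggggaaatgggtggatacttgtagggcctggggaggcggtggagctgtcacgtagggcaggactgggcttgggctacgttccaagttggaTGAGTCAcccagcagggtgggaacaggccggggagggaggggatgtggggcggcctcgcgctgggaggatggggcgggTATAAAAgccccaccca

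Motifs were searched on both strands, in 1 window a gene, taken at its annotated start farthest upstream. AP-1 was found in Anxa2 only among the 6 windows, and in 4.43% of 27025 windows of the same length. The TATA box was found in Anxa2 and Vim, and in 5.31% of all windows. The forkhead motif TGTTTAC was in 0 of the 6 windows and in 3.06% of all. Its shorter core TGTTTA, which the longer motif contains, was also in 0 of the 6, and in 12% of all windows. RefSeq and the deposited table disagree on some starts: the table's span of Anxa2 begins inside the window shown and takes in its TATA match, and the windows of Havcr1, Lcn2 and Vim also lie in the table's spans. These matches describe letters in a window and not sites that a factor uses.

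Among the secreted and shed markers, Havcr1 was near the detection floor in every library. Havcr1 (chromosome 11, 46735080 to 46779578, in mm10 as for all gene positions here) encodes kidney injury molecule 1, a phosphatidylserine receptor that injured proximal tubule cells display and shed. It had 2, 0 and 4 counts in Foxp1-deficient libraries 1, 2 and 3, against 0, 0 and 6 counts in controls 1, 2 and 3. Exact Poisson intervals at 95% put its level at no more than 0.43 and 0.54 CPM in Foxp1-deficient 1 and 3, against 0.717 CPM in control 3. A count of 0, taken to allow up to 3 counts, leaves room for 0.309 CPM in Foxp1-deficient 2, against 0.21 and 0.266 CPM in controls 1 and 2. That limit is of another kind and lower than the exact interval, which reaches 0.38 CPM in Foxp1-deficient 2, against 0.258 and 0.327 CPM in controls 1 and 2. A difference between groups was not detectable at this depth. Intervals of this kind reflect counting error alone, as the reads carry no molecular identifiers and are not independent molecules.

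Lcn2 (chromosome 2, 32384633 to 32388252) encodes lipocalin 2, an iron-siderophore binding protein that injured distal tubule and neutrophils secrete. It had 0.178, 6.49 and 2.22 CPM in Foxp1-deficient libraries 1, 2 and 3, against 0.14, 13.6 and 3.24 CPM in controls 1, 2 and 3. The groups overlapped, and in both of them the library numbered 2 was highest and the library numbered 1 lowest. The libraries numbered 1 held 3 counts in the Foxp1-deficient kidney and 2 in the control, a ratio of 1.27 with a 95% counting interval of 0.146 to 15.2. In pair 2 the ratio of Foxp1-deficient to control was 0.478 (0.35 to 0.645), and in pair 3 it was 0.684 (0.449 to 1.03). Over all 6 libraries Lcn2 averaged 3.37 ± 4.13 CPM in Foxp1-deficient libraries and 6.36 ± 8.52 CPM in controls (SD, n = 3 each, CPM scaled by TMM), and the fitted log2 fold change was -0.92 (SE 1.65, adjusted p = 0.9998, edgeR). Without control 2 it was 1.13, and with both libraries numbered 2 left out it was -0.51.

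Spp1 (chromosome 5, 104435118 to 104441050) encodes osteopontin, a secreted phosphoprotein that binds integrins and CD44, made by distal nephron epithelium and by macrophages. It had 4.40, 16.1 and 245.5 CPM in Foxp1-deficient libraries 1, 2 and 3, against 14.6, 31.2 and 271 CPM in controls 1, 2 and 3. The libraries numbered 3 were far above the others in both groups, and within each pair the Foxp1-deficient library was the lower of the 2. The ratio was 0.302 in pair 1 (95% counting interval 0.228 to 0.396), 0.514 in pair 2 (0.423 to 0.623) and 0.904 in pair 3 (0.869 to 0.942). Without a block for the pairs, the log2 fold change was -0.29 (SE 1.44, adjusted p = 0.9998, edgeR), and it was 0.26 without Foxp1-deficient 1, 0.17 without Foxp1-deficient 2 and 1.66 without control 3. Thick ascending limb and distal tubule genes, 9 in the list, summed to 2.14, 1.65 and 262 CPM in Foxp1-deficient libraries 1, 2 and 3, against 0.28, 1.24 and 231 CPM in controls 1, 2 and 3. Macrophage and leukocyte genes, 12 in the list, summed to 63.7, 318 and 747 CPM in the Foxp1-deficient libraries and to 353, 522 and 1348 CPM in the controls. Their part in the Spp1 values was not tested. In pulldowns from kidney tissue, fewer cells of a type and less RNA per cell cannot be told apart.

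Clu (chromosome 14, 65968483 to 65981548) encodes clusterin, a secreted chaperone that rises in damaged and dilated tubules. It had 72.4, 393 and 213 CPM in Foxp1-deficient libraries 1, 2 and 3, against 62.9, 271 and 139.8 CPM in controls 1, 2 and 3. Both groups were highest in the library numbered 2 and lowest in that numbered 1, and the Foxp1-deficient library was the higher of the 2 in each pair. The ratio was 1.15 in pair 1 (95% counting interval 1.06 to 1.26), 1.45 in pair 2 (1.38 to 1.52) and 1.52 in pair 3 (1.45 to 1.60). Means were 247 ± 216 CPM in Foxp1-deficient libraries and 168 ± 136 CPM in controls (SD, n = 3 each, scaled by TMM), with a log2 fold change of 0.55 (SE 0.84, adjusted p = 0.9998, edgeR). Without Foxp1-deficient 2 it was -0.40.

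**Figure D1:**
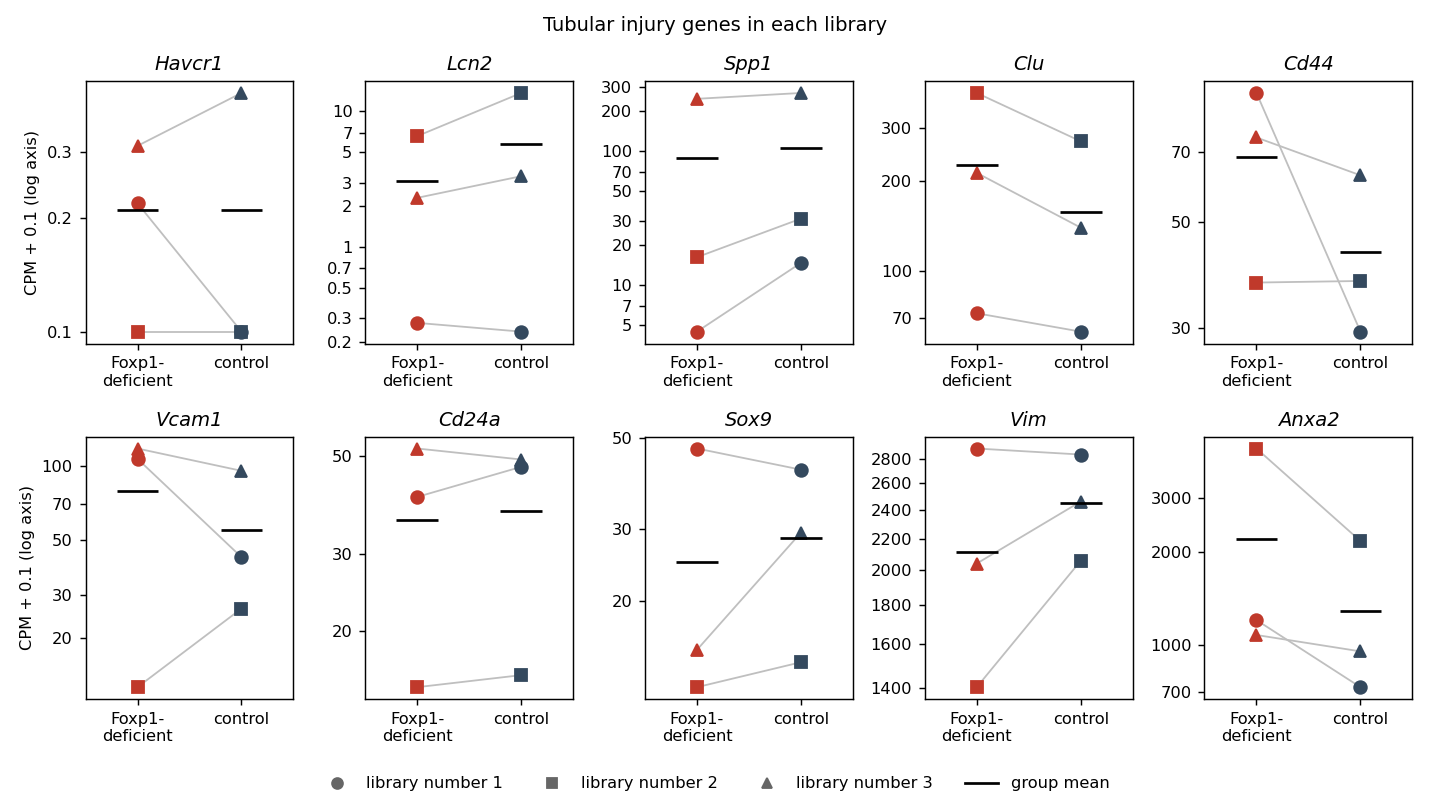
Level of each of the 10 tubular injury genes in each library, as CPM of the library total plus 0.1 on a log axis, with Foxp1-deficient libraries on the left and controls on the right. Symbols mark the library number, grey lines join equal numbers and black bars are group means. Groups overlap in all 10 panels, and Lcn2, Clu and Anxa2 are highest in the libraries numbered 2, whereas Vcam1, Cd24a and Sox9 are lowest there.

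Among the surface receptors, Cd44 had the smallest share of its variance tied to library number. Cd44 (chromosome 2, 102811141 to 102901665) encodes the receptor for hyaluronan and osteopontin. It had 92.7, 37.2 and 74.8 CPM in Foxp1-deficient libraries 1, 2 and 3, against 29.3, 37.5 and 62.3 CPM in controls 1, 2 and 3. Foxp1-deficient 1 and 3 stood above all 3 controls, and Foxp1-deficient 2 lay inside the control range. The difference came mostly from pair 1, with a ratio of 3.16 (95% counting interval 2.83 to 3.53), while the ratio was 1.20 in pair 3 (1.11 to 1.30) and 0.992 in pair 2 (0.86 to 1.14). Cd44 averaged 66.4 ± 21.1 CPM in Foxp1-deficient libraries and 42.4 ± 13.8 CPM in controls (SD, n = 3 each, scaled by TMM), and its log2 fold change of 0.65 (SE 0.42, adjusted p = 0.9998, edgeR) lay within the spread between libraries. Over all alternatives it ran from 0.38 to 0.94.

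Vcam1 (chromosome 3, 116109949 to 116129688) encodes the adhesion molecule that leukocytes bind through integrin alpha 4, and it marks tubule cells that fail to repair. It had 107, 12.5 and 118 CPM in Foxp1-deficient libraries 1, 2 and 3, against 42.5, 26.2 and 95.8 CPM in controls 1, 2 and 3. The pairs disagreed in direction: the ratio was 2.52 in pair 1 (95% counting interval 2.30 to 2.77), 0.476 in pair 2 (0.382 to 0.59) and 1.23 in pair 3 (1.16 to 1.31). Its log2 fold change was 0.50 (SE 0.73, adjusted p = 0.9998, edgeR), and leaving out 1 library at a time moved it between 0.17 and 1.05. Endothelial genes, 10 in the list, were also lowest in the libraries numbered 2, with a sum of 202, 109 and 240 CPM in Foxp1-deficient libraries 1, 2 and 3, against 228, 81.0 and 215 CPM in controls 1, 2 and 3, and their part in the Vcam1 values was not tested. Tek carried much of these sums, with 134, 91.5 and 136 CPM in the Foxp1-deficient libraries, against 113, 48.8 and 73.0 CPM in the controls. Of the 10 endothelial genes, 7 had a log2 fold change below 0 and 3 above, with a median of -0.98 and 0 called.

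Cd24a (chromosome 10, 43579169 to 43584262) encodes a small lipid-anchored surface glycoprotein of immature nephron epithelium and regenerating tubule cells. It had 40.3, 14.8 and 52.0 CPM in Foxp1-deficient libraries 1, 2 and 3, against 47.2, 15.8 and 49.0 CPM in controls 1, 2 and 3. Equally numbered libraries lay close together, with ratios of 0.854 (95% counting interval 0.767 to 0.952), 0.939 (0.748 to 1.18) and 1.06 (0.967 to 1.16) in pairs 1, 2 and 3. The log2 fold change was -0.07 (SE 0.51, adjusted p = 0.9998, edgeR), and it was 0.23 without Foxp1-deficient 2, 0.13 without control 1 and 0.10 without control 3. Near-identical copies of a gene are uncertain in these counts, and Cd24a has such copies elsewhere in the mouse genome.

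Sox9 (chromosome 11, 112782224 to 112787760) encodes a transcription factor of the ureteric bud tip that surviving tubule cells switch on after injury. It had 47.1, 12.3 and 15.1 CPM in Foxp1-deficient libraries 1, 2 and 3, against 41.8, 14.1 and 29.3 CPM in controls 1, 2 and 3. The libraries numbered 1 were highest in both groups, and the widest gap within a pair was in pair 3. There the ratio was 0.516 (95% counting interval 0.446 to 0.597), against 1.13 (1.01 to 1.25) in pair 1 and 0.868 (0.679 to 1.11) in pair 2. Its log2 fold change was -0.17 (SE 0.60, adjusted p = 0.9998, edgeR). It turned to 0.08 without Foxp1-deficient 2, 0.12 without Foxp1-deficient 3 and 0.20 without control 1. The 12 collecting duct genes, a lineage of the ureteric bud, summed to 222, 67.5 and 109.6 CPM in Foxp1-deficient libraries 1, 2 and 3, against 220.1, 140 and 158 CPM in controls 1, 2 and 3. Of these 12, 7, 8 and 0 were at 0 in the Foxp1-deficient libraries and 5, 8 and 0 in the controls, and their part in the Sox9 values was not tested. Zeros in the libraries numbered 2 weigh less, as fewer genes of any kind had a count there. Slc4a1, which is also an erythroid gene, and Wnt11 carried most of these sums, and each of the other 10 genes was at 9.60 CPM or less in every library. Slc4a1 had 119.97, 7.52 and 7.65 CPM in the Foxp1-deficient libraries, against 83.5, 8.52 and 7.03 CPM in the controls. Wnt11 had 95.2, 55.3 and 57.9 CPM in the Foxp1-deficient libraries, against 124.8, 123 and 113 CPM in the controls.

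The 2 structural members were the most abundant. Vim (chromosome 2, 13573927 to 13582826) encodes vimentin, the intermediate filament of mesenchyme that dedifferentiated tubule cells also make. It had 2889, 1405 and 2041 CPM in Foxp1-deficient libraries 1, 2 and 3, against 2837, 2058 and 2462 CPM in controls 1, 2 and 3. Pair 1 was nearly even, with a ratio of 1.02, whereas the ratio was 0.683 in pair 2 and 0.829 in pair 3. Vim averaged 2086 ± 573 CPM in Foxp1-deficient libraries and 2435 ± 257 CPM in controls (SD, n = 3 each, scaled by TMM), and its log2 fold change was -0.22 (SE 0.43, adjusted p = 0.9998, edgeR). The 14 stroma and fibroblast genes were likewise lowest in Foxp1-deficient 2, with sums of 23040, 10318 and 28510 CPM in Foxp1-deficient libraries 1, 2 and 3, against 25558, 22748 and 31806 CPM in controls 1, 2 and 3, and their part in the Vim values was not tested.

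Anxa2 (chromosome 9, 69453620 to 69491795) encodes annexin A2, a calcium-dependent membrane-binding protein that pairs with S100A10. It had 1200.3, 4327 and 1074 CPM in Foxp1-deficient libraries 1, 2 and 3, against 727, 2166 and 949.9 CPM in controls 1, 2 and 3. Within each pair the Foxp1-deficient library was the higher, with ratios of 1.65 (95% counting interval 1.61 to 1.69), 2.00 (1.97 to 2.03) and 1.13 (1.11 to 1.15) in pairs 1, 2 and 3. The groups overlapped all the same, because control 2 exceeded Foxp1-deficient 1 and 3. Means were 2477 ± 2496 CPM in Foxp1-deficient libraries and 1364 ± 1041 CPM in controls (SD, n = 3 each, scaled by TMM), and the log2 fold change was 0.86 (SE 0.85, adjusted p = 0.9998, edgeR). Without Foxp1-deficient 2 it was -0.39. The 7 mesothelial genes, with Upk3b the most abundant in every library, summed to 2770, 5134 and 3539 CPM in Foxp1-deficient libraries 1, 2 and 3, against 1988, 2030 and 1951 CPM in controls 1, 2 and 3. Those sums, scaled to library totals, did not overlap between groups, nor did Upk3b on that scale (997 to 2133 CPM against 596 to 870 CPM). The share of all genes without overlap on that scale was not computed. Wt1 had 138, 69.7 and 157 CPM in Foxp1-deficient libraries 1, 2 and 3, against 192, 53.7 and 168 CPM in the controls. Lrrn4 and Muc16 were lower in Foxp1-deficient 2 than in control 2. When scaled by TMM, each single gene of the 7 overlapped. Of the 7, 4 were higher in all 3 pairs, against 16.5% of all genes tested, and 1 had a log2 fold change below 0. Genes of a list are not independent, and the list was chosen with earlier results known, so that share is no test. None of the 7 genes was at 0 in any library, and the part of mesothelial RNA in the Anxa2 and Clu values was not tested.

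Levels were compared between members per base of exon, as TPM (counts per base of exon, scaled to the same sum in each library), and only within a library. One ribosomal RNA-type row of 57 bases, Gm23935, took from 14.3% to 46.0% of all TPM, with the 2 highest shares in the libraries numbered 2. TPM are therefore no measure of change between libraries here. Vim exceeded Anxa2 in 4 of 6 libraries, all but those numbered 2, and both exceeded every other member in all 6. Vim ranged from 311 to 1639 TPM and Anxa2 from 453 to 1217 TPM. Spp1 came next on average, yet it exceeded Clu in 2 of 6 libraries only, those numbered 3, where it reached 372 TPM in each group. It was at 7.18 TPM in Foxp1-deficient 1. Clu ranged from 42.5 to 155 TPM and Cd24a from 8.58 to 71.6 TPM, and Clu was above Cd24a in 4 of 6 libraries. Cd24a was above Cd44 in 6 of 6. Cd44, Vcam1 and Sox9 did not keep an order, since Cd44 exceeded Vcam1 in 3 of 6 libraries and Vcam1 exceeded Sox9 in 3 of 6. Lcn2 reached at most 6.59 TPM and Havcr1 at most 0.322 TPM, and Lcn2 was above Havcr1 in all 6. Vim and Anxa2 together made up from 81.2% to 93.7% of the summed CPM of the 10 genes.

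Between groups, none of the 9 tested members passed edgeR's quasi-likelihood test with Benjamini-Hochberg adjustment at 0.05. The background was 0 of 14311 genes called, or 0%, with 103 genes (0.72%) at an unadjusted p under 0.05 and 0 members among them. DESeq2 called 6 genes (0.0426% of those with an adjusted p) and limma-voom 0, with no member called by either. Of the 9 members, 4 had a log2 fold change above 0 and 5 below, with a median of -0.07, against a median of 0.03 over all genes tested, of which 53.6% lay above 0. Leaving out 1 library, which breaks a pair of equal numbers, gave a median between 0.08 and 0.37, and a filter at 5 CPM in 3 libraries, which Lcn2 did not pass, gave 0.20. With both libraries numbered 2 left out the median was -0.07, as it was with the block described next, and each of the 9 members had the same direction in both of these fits as with all libraries and no block. CPM scaled by TMM overlapped between groups for all 10 members, whereas 4.75% of the genes tested had groups that did not overlap, 2.64% with Foxp1-deficient higher and 2.11% with it lower.

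Equally numbered libraries deviated together from their group means, so a fit that pairs them by number was also made. Once that number entered the fit as a block, edgeR called 0 of 14311 genes (0%) and no member, with 762 genes (5.32%) at an unadjusted p under 0.05. Of these, 3 were members. Clu had a log2 fold change of 0.46 (SE 0.14, unadjusted p = 0.0227, adjusted p = 0.853, edgeR with the block), Anxa2 of 0.65 (SE 0.22, unadjusted p = 0.0306, adjusted p = 0.853) and Spp1 of -0.88 (SE 0.31, unadjusted p = 0.0379, adjusted p = 0.853). Clu and Anxa2 were higher in the Foxp1-deficient library of all 3 pairs, and Spp1 lower in all 3. Cd44 was higher in all 3 when scaled by TMM, with a difference of 0.05 on the log2 scale in pair 2, and it was -0.01 there when scaled to library totals. Among all genes tested, 16.5% were higher in all 3 pairs and 16% lower, against 3 and 1 of the 9 members. The members were chosen with earlier results known, so these shares are descriptions. DESeq2 with the block called 169 genes (1.43%) and limma-voom with the block 8 (0.0559%). With DESeq2 and the block the adjusted p was 0.0982 for Anxa2, 0.215 for Spp1 and 0.282 for Clu, and no member was called by either tool.

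**Figure D2:**
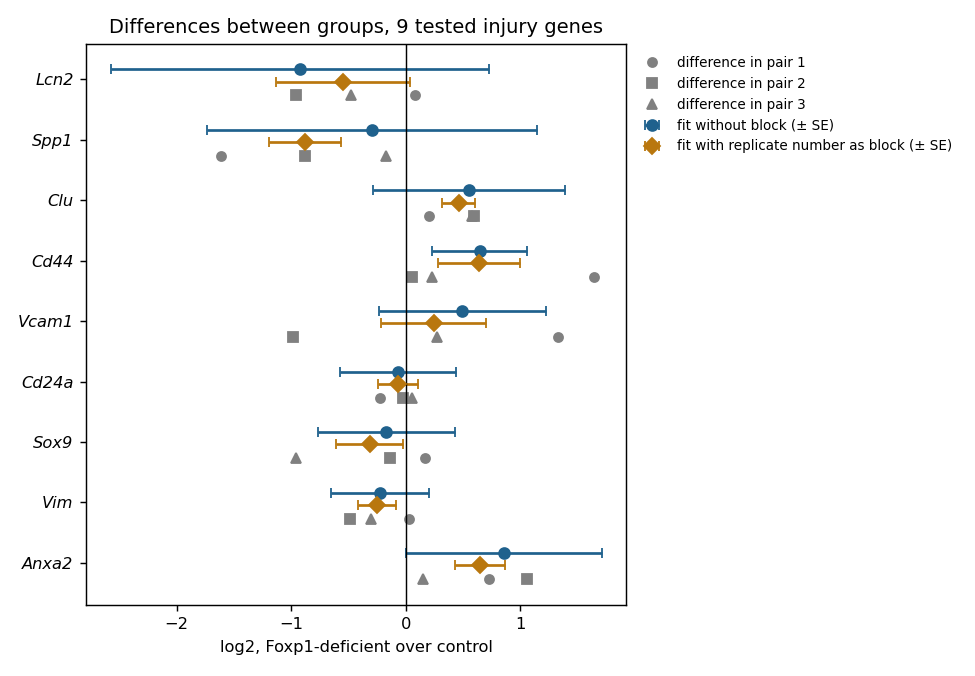
Log2 differences of Foxp1-deficient over control for the 9 tested injury genes, as fitted without a block and with the replicate number as a block (bars are 1 SE), with the difference in each of the 3 pairs in grey. Clu and Anxa2 lie above 0 and Spp1 below 0 in all 3 pairs, whereas Vcam1 lies at 1.33, -0.98 and 0.27.

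The number of the library carried most of the variance of these genes. Of the variance of log2 CPM over the 6 libraries, replicate number took 98.6% for Cd24a, 96.8% for Lcn2, 94.9% for Clu and 93.3% for Spp1. It took 87.1% for Anxa2, 82.1% for Sox9, 76.6% for Vcam1 and 61.3% for Vim. Cd44 differed from these, with 10.8% tied to number, 40.1% to group and 49.1% to the remainder. Group took 22.5% for Vim and at most 9.61% for the other 7. Over all genes tested, the median share was 79.8% for number and 5.62% for group, against 87.1% and 4.69% for the members. With 6 libraries any grouping takes up some variance, so these shares are descriptions.

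**Figure D3:**
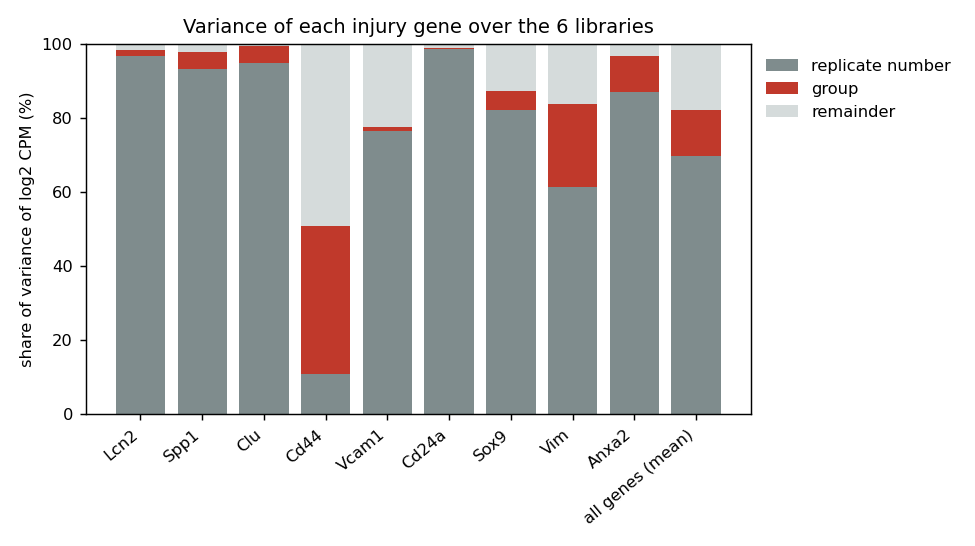
Share of the variance of log2 CPM (scaled by TMM) over the 6 libraries that goes with replicate number, with group and with neither, for each of the 9 tested injury genes and as the mean over all 14311 genes tested. Replicate number takes 69.7% on average over all genes and over 90% for Cd24a, Lcn2, Clu and Spp1, against 10.8% for Cd44.

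The general, proximal and thick limb tubule lists were highest in the pair numbered 3, yet tubule transcripts were low beside stromal ones there. The 6 general tubule epithelium genes summed to 76.2 CPM in Foxp1-deficient 3 and 72.6 CPM in control 3. The 14 stroma and fibroblast genes summed to 28510 and 31806 CPM in the same libraries. On the log2 scale (CPM scaled by TMM, plus 0.5), the difference of Foxp1-deficient over control in that pair was 0.58 for Clu, 0.27 for Vcam1, 0.23 for Cd44, 0.15 for Anxa2 and 0.05 for Cd24a. It was -0.17 for Spp1, -0.30 for Vim, -0.47 for Lcn2 and -0.96 for Sox9. Clu and Sox9 thus stood farthest from 0 in either direction, but 1 library a group gives no test of them. Leaving out both libraries numbered 2 gave log2 fold changes of 0.89 for Cd44, 0.72 for Vcam1, 0.47 for Clu and 0.44 for Anxa2 in the edgeR test, which then called 0 genes. The other 5 members lay below 0, with -0.51 for Lcn2, -0.22 for Spp1, -0.18 for Sox9, -0.10 for Vim and -0.07 for Cd24a. With the block as well, edgeR called 30 genes (0.196%), none of them a member. Adjusted p of the 9 members in that fit lay between 0.333 for Vcam1 and 0.926 for Lcn2.

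Among 39 other injury and repair genes, 35 could be tested, and 0 passed in either direction. Of the 35, 21 lay above 0 and 14 below, with a median log2 fold change of 0.08. The 4 of lowest p were C3, Cp, Plaur and Gdf15. C3, the central complement component, had 65.1, 75.7 and 217 CPM in Foxp1-deficient libraries 1, 2 and 3, against 27.4, 46.5 and 67.6 CPM in controls 1, 2 and 3. Its groups did not overlap when scaled by TMM, as for 2.64% of all genes tested with Foxp1-deficient higher. They overlapped by library totals, where Foxp1-deficient 1 lay below control 3. Its fit gave a log2 fold change of 1.29 (SE 0.54, unadjusted p = 0.0461, adjusted p = 0.9998, edgeR). With DESeq2 and the block C3 passed (log2 fold change 1.23, adjusted p = 2.79e-04), and it also passed in edgeR with the block when both libraries numbered 2 were left out (1.47, adjusted p = 0.0376). Those fits called 1.43% and 0.196% of all genes. As C3 was picked by its p in the same counts, these passes add no independent support. C3 did not pass with the block over all libraries in edgeR (adjusted p = 0.453) or limma-voom (adjusted p = 0.114), and without Foxp1-deficient 3 its log2 fold change was 0.71. Cp, encoding ceruloplasmin, averaged 5.89 ± 1.88 CPM in Foxp1-deficient libraries and 2.85 ± 1.44 CPM in controls (SD, n = 3 each). Plaur, the urokinase receptor gene, averaged 101 ± 35.7 and 75.9 ± 43.5 CPM in Foxp1-deficient libraries and controls, and Gdf15, a stress cytokine gene, 4.24 ± 1.43 and 6.59 ± 4.10 CPM.

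The proteins of these members have known partners, and of 26 partner genes 24 could be tested. None passed over all genes, with 13 above 0, 11 below and a median log2 fold change of 0.09. Has1, which makes the hyaluronan that CD44 binds, had 5.59, 22.8 and 5.86 CPM in Foxp1-deficient libraries 1, 2 and 3, against 0.14, 0 and 1.37 CPM in controls 1, 2 and 3. Its groups did not overlap, as for 2.64% of all genes tested with Foxp1-deficient higher. The log2 fold change of Has1 was 4.73 (SE 1.49, unadjusted p = 0.0142, adjusted p = 0.9998, edgeR). Control 2 was at 0, and the fitted size was 3.46 without Foxp1-deficient 2, 7.24 without control 3 and 2.92 without both libraries numbered 2. Lrp2, encoding megalin, a receptor for lipocalin 2, had 55.2, 97.4 and 203 CPM in Foxp1-deficient libraries 1, 2 and 3, against 34.9, 27.4 and 115 CPM in controls 1, 2 and 3. Ezr, encoding ezrin, a linker of CD44 to actin, had 1361, 571 and 1229 CPM in the Foxp1-deficient libraries, against 763, 330.1 and 708 CPM in the controls. Des, encoding desmin, a filament partner of vimentin, had 288, 269 and 257 CPM in the Foxp1-deficient libraries and 298, 731 and 509 CPM in the controls. Has1, Des, Ezr and Lrp2 are named because they had the lowest p of the 24 in edgeR without a block. DESeq2 with the block used the same counts and called 1.43% of all genes. That share is no yardstick for genes picked by their p. Has1, Lrp2 and Ezr passed in DESeq2 with the block, at adjusted p of 0.00145, 0.0258 and 1.54e-07, and Des did not. None of these 3 passed with the same block in limma-voom, where adjusted p was 0.51, 0.336 and 0.0891, or in edgeR, where it was 0.853, 0.853 and 0.41. The log2 fold change of Lrp2 was 0.61 without Foxp1-deficient 3 and 1.83 without control 3, and that of Des was -0.42 without control 2. The mesothelial sum was above all 3 controls in each Foxp1-deficient library, and its part in the values of Has1, Lrp2, Ezr and C3 was not tested.

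**Figure D4:**
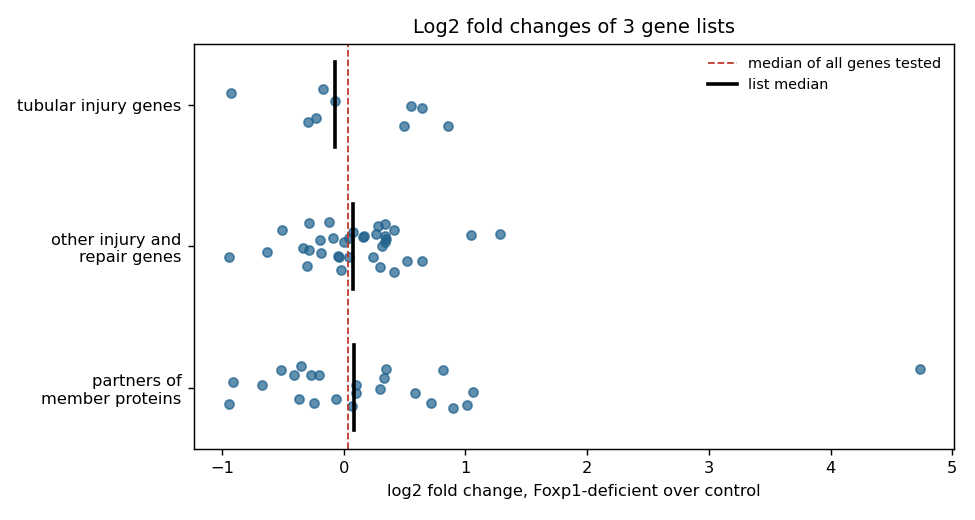
Log2 fold change of Foxp1-deficient over control in the edgeR fit for the 9 tested injury genes, 35 other injury and repair genes and 24 genes of partner proteins, 1 point a gene, with vertical jitter for legibility. Black bars are list medians of -0.07, 0.08 and 0.09, and the dashed line is the median of all genes tested, 0.03.

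Tubule marker lists differed by library number, whereas the mesothelial sum was higher in all 3 Foxp1-deficient libraries than in any control. Each single mesothelial gene overlapped between groups when scaled by TMM, and the genes did not all go the same way. The 12 macrophage and leukocyte genes all had a log2 fold change below 0, with a median of -1.06 and 0 called. Of these 12, 9 were lower in the Foxp1-deficient library of all 3 pairs, against 16% of all genes tested. That share is no test of this list either, for the reasons given for the mesothelial genes. Proximal tubule genes, 13 in the list, summed to 94.4, 128 and 1251 CPM in Foxp1-deficient libraries 1, 2 and 3, against 43.8, 118 and 1163 CPM in controls 1, 2 and 3. Lrp2, also among the partner genes, carried most of this sum in Foxp1-deficient 1 and 2 and control 1, with 55.2, 97.4 and 34.9 CPM. Of the 9 thick ascending limb and distal tubule genes, 3, 8 and 0 were at 0 counts in Foxp1-deficient libraries 1, 2 and 3, and 7, 8 and 0 in controls 1, 2 and 3. Fewer genes of any kind had a count in the libraries numbered 2, so a 0 there is weaker evidence of absence. Umod, the defining gene of the thick limb, was at 0 in 3 of the 6 libraries. Members with known tubule sources were measured beside these lists. Spp1 was highest in the libraries numbered 3 of both groups, as were the proximal and distal lists, the macrophage and leukocyte list and the stroma list. Which of these goes with Spp1 was not tested. Vim, Anxa2, Clu and Cd44 were at 29.3 CPM or more in every library, including those with hardly any tubule transcripts.

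**Figure D5:**
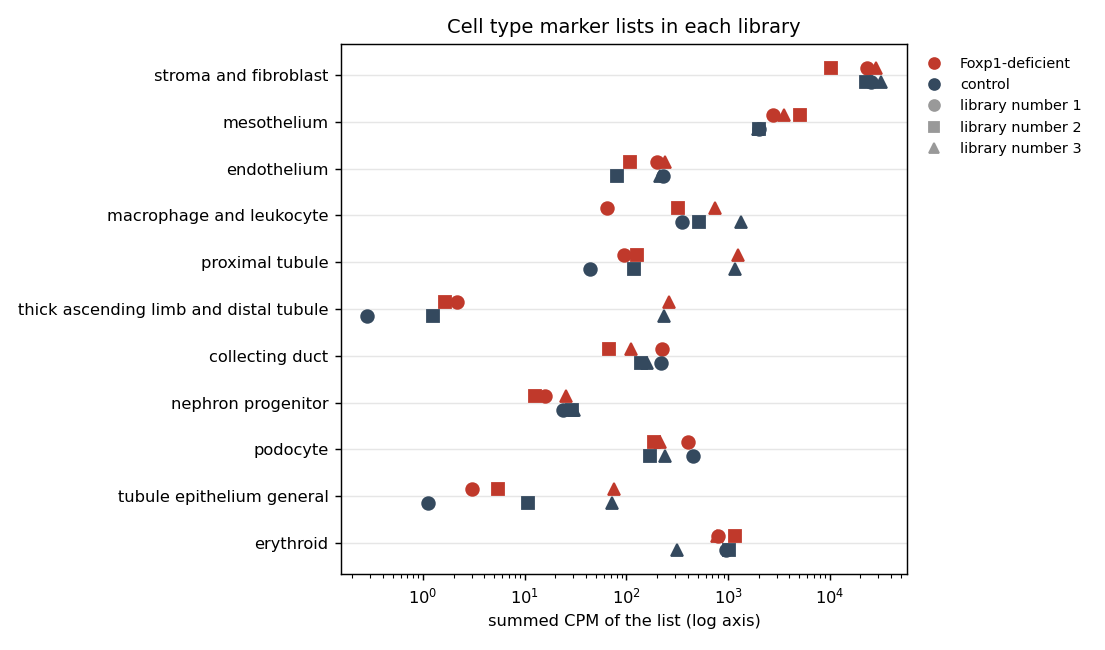
Summed CPM of each cell type marker list in each library, on a log axis, with Foxp1-deficient libraries above controls in each row and symbols for the library number. The general, proximal and thick limb tubule lists are highest in the libraries numbered 3 of both groups, and the mesothelium list is above the controls in all 3 Foxp1-deficient libraries, at 2770 to 5134 against 1951 to 2030 CPM.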

How the data were processed

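RNA from pulldowns of HA-tagged ribosomes was measured in 6 kidney libraries, grouped and numbered by their titles. The deposited values are raw counts by gene symbol. Per the file headers, the authors ran featureCounts 1.5.1 on read pairs, over exons of mm10 annotation version 86, with no strand or multi-mapping option. A gene and its antisense partner thus cannot be told apart. Per the submitters' processing notes, STAR, Trimmomatic, SAMtools, FastQC, deepTools and DESeq2 were also used. The gene length, deposited by the authors in bases, was used for TPM only.

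The test was that of edgeR 4.0.16 in R 4.3.3 (TMM, filterByExpr, quasi-likelihood F test, two-sided, Benjamini-Hochberg over all genes tested, threshold 0.05). DESeq2 1.42.0 and limma-voom (limma 3.58.1) were alternatives, with other size factors, filters, a replicate block and libraries left out. The SE given with edgeR was derived from its test, as the absolute log2 fold change over the square root of the F statistic. CPM per library use library totals and means ± SD use TMM. A count of 0 allows 3 counts, or 0.158 to 0.309 CPM.

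Equally numbered libraries deviated together from their group means: over genes, which are not independent replicates, r was 0.661 for pair 1, 0.628 for pair 2 and 0.681 for pair 3. The block therefore rests on the data; no label gives what a number marks.

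Members and lists were chosen with earlier results of these data known. Genes named beside the members are Foxp1 and the 4 of lowest p in each pathway list. Scripts were tested on simulated data. Promoters come from RefSeq (GRCm38.p6). Figures used matplotlib 3.10.9.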

Additional observations from a re-analysis of the deposited data

How the results depend on the processing

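Over the 17 alternatives no injury gene passed. The count of genes called was 0 except for 6 with DESeq2, 169 with DESeq2 and a replicate block, 8 with limma-voom and a replicate block, and 30 in edgeR with a replicate block and both libraries numbered 2 left out; edgeR with the replicate block and all libraries called 0. The block changed no call of a member. Cd44, Vcam1 and Vim kept their direction in all 17. Leaving out 1 library at a time, the log2 fold change ran from -3.05 to 1.66 for Spp1, -0.97 to 0.20 for Sox9, -0.40 to 1.41 for Clu, -0.38 to 0.23 for Cd24a, -0.39 to 1.68 for Anxa2 and -2.57 to 1.13 for Lcn2. The cause was not tested. The members' median ran from -0.08 to 0.37. Gdf15 turned to 0.17 in edgeR with the replicate block and both libraries numbered 2 left out. Lcn2 and Cp were not tested under the stricter filter, and Havcr1 could be tested only without a filter. Few counts limit Havcr1 in all libraries and Lcn2 in those numbered 1. The libraries numbered 1 had higher total counts than those numbered 2, where Lcn2 was highest. The alternatives for Foxp1 and the pathway genes were added after seeing the data.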
